A study of Homo sapiens with 8 samples.

Results

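PHF13, a chromatin protein with a PHD finger that reads methylated histone H3, was depleted in Panc-1 cells, and the mRNA of 9 receptors of the TNF receptor superfamily was followed with and without TGFβ. The receptors were *TNFRSF1A*, *TNFRSF1B*, *FAS*, *TNFRSF10A*, *TNFRSF10B*, *TNFRSF10D*, *TNFRSF21*, *TNFRSF11B* and *TNFRSF12A*, and all 9 were found by name among the 13307 genes of the expression table. They were chosen by name with results of these data in view. *TNFRSF1B* was listed for a TGFβ response that differed after depletion, so that its values are given as a description and without a test, and the other 8 receptors were tested. Panc-1 is an established cell line from a human pancreatic duct carcinoma. It was transfected with a non-targeting control siRNA (siControl) or with siRNAs against *PHF13* (siPHF13), and each transfected culture was either left untreated or given 10 ng/ml TGFβ for 48 h, a cytokine used here to induce epithelial-mesenchymal transition. The 4 groups were siControl, siPHF13, siControl + TGFβ and siPHF13 + TGFβ, with 2 mRNA-seq libraries each. The sources do not say whether the siRNAs were used singly or mixed. The methods describe the experiments as done in duplicate without saying what was duplicated, so that p-values measure the spread between these libraries, which may be technical.

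Receptors of this superfamily sit in the cell membrane and bind ligands of the TNF family through cysteine-rich repeats. Those with an intracellular death domain recruit TRADD or FADD and can start caspase-8 driven apoptosis, whereas the others bind TRAF proteins and feed the NF-κB and MAP kinase pathways. Decoy receptors bind a ligand without passing on a full signal. Carcinoma cells are known to carry several of these receptors at once, and TRAIL and FAS ligand kill tumour cells through them.

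Between 39196214 and 46700806 reads were counted on genes in each library. Values are normalized counts, that is reads on a gene divided by the size factor of the library. *PHF13* had 1804 and 1662 normalized counts in siControl, 524 and 558 in siPHF13, 1586 and 1709 in siControl + TGFβ and 513 and 529 in siPHF13 + TGFβ. Its log2 fold change upon depletion was -1.68 without TGFβ and -1.66 with it (limma with Benjamini-Hochberg adjustment, adjusted p = 1.52e-08 and 1.3e-08). The 6 epithelial markers fixed for the check were present, with a summed level of 121810 to 204430 normalized counts per library. Most of this sum was *KRT8*, *KRT18* and *KRT19*. *CDH1* had 78.8 to 460, *EPCAM* 115 to 306 and *KRT7* 379 to 489 normalized counts per library. The 3 mesenchymal markers were present as well (162680 to 205760), a sum that was mostly *VIM*, with *FN1* at 49.7 to 181. Of 6 leukocyte markers *CD14* and *ITGAM* had a row in the table, whereas *PTPRC*, *CD3E* and *LYZ* were among those with none, nor had any of 3 endothelial markers. Of 5 fibroblast markers *COL1A1* had a row, at 1887 to 16414 normalized counts.

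*TNFRSF1B*, the TNF receptor without a death domain, was highest in untreated control cells and lower in the 3 other groups. It had 8506 and 8778 normalized counts in siControl, 3737 and 4536 in siPHF13, 3976 and 3916 in siControl + TGFβ and 3533 and 3085 in siPHF13 + TGFβ. The siPHF13 and siControl + TGFβ libraries overlapped, and those of siPHF13 + TGFβ were the lowest group. Relative to the siControl mean of 8642 ± 192 (SD, n = 2), 47.9% remained after depletion, 45.7% after TGFβ and 38.3% after both. On the log2 scale the difference was -1.07 (standard error 0.09) for depletion alone and -1.13 (0.09) for TGFβ alone. Depletion on top of TGFβ gave -0.26 (0.09), and TGFβ in depleted cells gave -0.32 (0.09). The TGFβ response in siPHF13 cells minus that in siControl cells was 0.81 (standard error 0.12). This is the value for which *TNFRSF1B* was selected, and it carries no test.

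**Figure D1:**
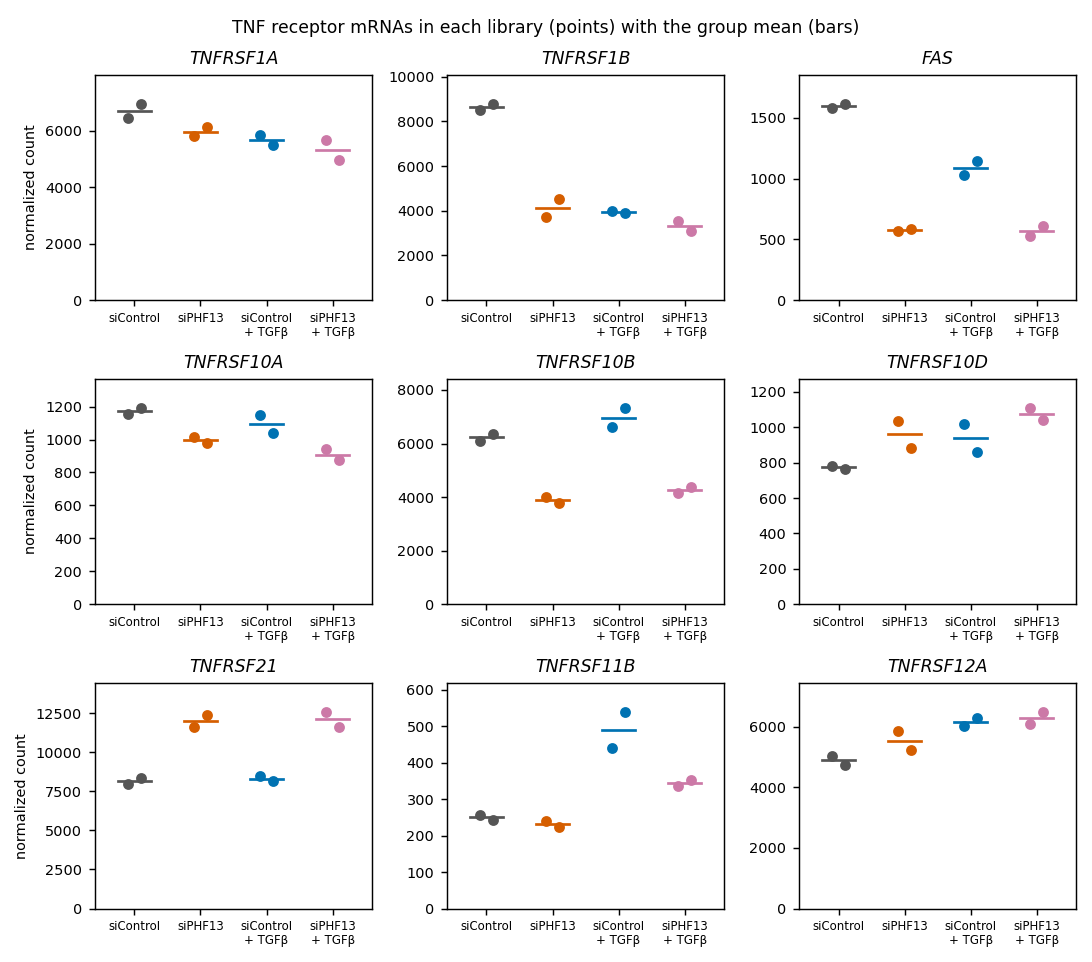
Normalized counts (vertical axes, from 0) of the 9 receptors in the 4 groups, with a point for each of the 2 libraries and a bar for their mean. *TNFRSF1B* stands at 8506 and 8778 in siControl and between 3085 and 4536 in the 6 other libraries, *FAS* between 531 and 608 in the 4 depleted libraries, and *TNFRSF21* at 11625 to 12541 in those 4 libraries.

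The bases before the transcription start are shown for 3 receptors. *TNFRSF1B* and *FAS* were both lower in depleted cells, and *TNFRSF21* was higher there. Each window holds the 250 bases before the start annotated by RefSeq on GRCh38.p14, read 5′ to 3′ on the strand of the gene. Such windows were examined for 4 of the 9 receptors. None was examined for *TNFRSF10A*, *TNFRSF10B*, *TNFRSF10D*, *TNFRSF11B* and *TNFRSF12A*, so their upstream bases are not described. Capitals mark the letters of the GC box (GGGCGG, or CCGCCC where it lies on the opposite strand) that Sp-family factors are known to bind, and in *FAS* also those of an AP-1 site (TGANTCA), the element of the JUN and FOS proteins.
TNFRSF1B, chr1:12166741-12166990, plus strand: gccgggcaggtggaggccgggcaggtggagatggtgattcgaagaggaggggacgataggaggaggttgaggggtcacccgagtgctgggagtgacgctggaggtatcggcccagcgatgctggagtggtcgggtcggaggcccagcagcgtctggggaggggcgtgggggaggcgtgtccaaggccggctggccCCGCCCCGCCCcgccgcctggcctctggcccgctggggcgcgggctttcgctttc
FAS, chr10:88990548-88990797, plus strand: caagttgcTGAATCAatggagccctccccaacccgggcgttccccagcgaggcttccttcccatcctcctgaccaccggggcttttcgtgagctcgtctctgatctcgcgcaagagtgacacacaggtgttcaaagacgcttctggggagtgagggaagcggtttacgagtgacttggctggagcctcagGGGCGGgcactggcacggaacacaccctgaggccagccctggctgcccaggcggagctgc
TNFRSF21, chr6:47309906-47310155, minus strand: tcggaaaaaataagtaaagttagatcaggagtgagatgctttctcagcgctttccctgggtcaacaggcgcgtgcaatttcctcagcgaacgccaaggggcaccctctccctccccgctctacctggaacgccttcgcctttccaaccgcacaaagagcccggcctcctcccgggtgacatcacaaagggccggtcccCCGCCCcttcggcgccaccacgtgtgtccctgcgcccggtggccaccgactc

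The *TNFRSF1B* window held 2 GC boxes that share 1 base, and the windows of *FAS* and *TNFRSF21* held 1 each. A GC box was present on either strand in 42.6% of all 34786 windows, so that its presence sets none of the 3 genes apart. The AP-1 letters began 242 bases before the *FAS* start and occurred in 6.59% of all windows. *FAS* has 3 annotated starts with a window, and the one shown is the farthest upstream. The palindromic SMAD box GTCTAGAC, found in 0.178% of all windows, was in none of the windows of *TNFRSF1A*, *TNFRSF1B*, *FAS* and *TNFRSF21*. The window of *TNFRSF1B* had a GC content of 72.4%, that of *FAS* 62.8% and that of *TNFRSF21* 62.0%, against a median of 58% over all windows. The shorter SMAD element CAGAC (38% of all windows) was in those of *TNFRSF1A* and *TNFRSF1B* and in 1 of *FAS*, and the GAS element TTCNNNGAA (6.57%) was in none of the 4 genes. An NF-κB consensus was found in another of the *FAS* windows than the one shown and in 9.96% of all. These were not marked, and a match is a run of letters and not a measured binding site.

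To ask which receptors depended on PHF13 without TGFβ, siPHF13 was compared with siControl. *FAS*, which binds FAS ligand and recruits FADD through its death domain, fell most among the tested receptors. It had 1578 and 1616 normalized counts in siControl and 570 and 588 in siPHF13, and the 2 groups did not overlap. This was a log2 fold change of -1.46 (standard error 0.10, limma with Benjamini-Hochberg adjustment, adjusted p = 9.76e-08), or 2.76-fold lower. *TNFRSF10B*, a death receptor for TRAIL, had 6100 and 6356 normalized counts in siControl and 4016 and 3786 in siPHF13. Both depleted libraries lay below both control libraries. Its log2 fold change was -0.68 (standard error 0.07, adjusted p = 3.08e-06 in the same limma fit). Among the markers, *COL1A1* went from 3345 and 3433 to 1922 and 1887 normalized counts and was called lower, as were *CDH1*, *CDH2* and *FN1*, and *EPCAM* was called higher. Their part in the receptor values was not tested. The level of a bulk library does not tell fewer cells with a transcript from less transcript in each cell.

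*FAS* and *TNFRSF10B* were thus the 2 of the 8 tested receptors that passed both thresholds, which were 0.05 for the adjusted p and 0.58 for the size of the log2 fold change, and none was called higher. In this comparison 18.4% of all 13307 genes were called, and 10.4% were called lower. The median log2 fold change of the 8 receptors was -0.14, against -9e-04 over all genes. Without the threshold on the fold change 4 of the 8 receptors passed, and 47.4% of all genes.

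The remaining 6 receptors moved less upon depletion. *TNFRSF21*, a death-domain receptor studied mainly in neurons, had 7964 and 8377 normalized counts in siControl and 11625 and 12399 in siPHF13, without overlap. Its log2 difference of 0.56 (standard error 0.06) had an adjusted p of 9.77e-06 from limma but lay just under the fold threshold. It became 0.59 when siControl replicate 2 was left out and 0.60 when siPHF13 replicate 1 was, and the receptor was then called higher. *TNFRSF10D*, a TRAIL decoy with a truncated death domain, had 782 and 764 normalized counts in siControl and 1036 and 884 in siPHF13, a log2 difference of 0.31 that was also under the fold threshold (adjusted p = 0.032 from limma). *TNFRSF10A*, the other death receptor for TRAIL, had 1152 and 1190 in siControl and 1017 and 981 in siPHF13. Its log2 difference was -0.23 (adjusted p = 0.0506 from limma). *TNFRSF1A*, the TNF receptor with a death domain, had a log2 difference of -0.17 (adjusted p = 0.0801, limma). *TNFRSF12A*, the receptor for TWEAK, had one of 0.18 (adjusted p = 0.0508, limma). *TNFRSF11B*, the secreted decoy osteoprotegerin, had 257 and 242 normalized counts in siControl and 239 and 225 in siPHF13, which did not pass the test (log2 difference -0.11, adjusted p = 0.564 from limma).

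With TGFβ present the same question was asked by comparing siPHF13 + TGFβ with siControl + TGFβ. Their group means share no library with the comparison above, but the standard errors of both come from 1 fit of all 8 libraries. *FAS* had 1027 and 1144 normalized counts in siControl + TGFβ and 531 and 608 in siPHF13 + TGFβ, and the groups did not overlap. It fell by 0.93 on the log2 scale (standard error 0.10, limma with Benjamini-Hochberg adjustment, adjusted p = 5.02e-06). *TNFRSF10B* had 6622 and 7321 normalized counts in siControl + TGFβ and 4170 and 4374 in siPHF13 + TGFβ. It fell by 0.71 (standard error 0.07, adjusted p = 1.9e-06, limma). Of the markers *COL1A1*, at 4909 and 4691 normalized counts in siPHF13 + TGFβ, *CDH2* and *FN1* were called lower here and *KRT19* and *EPCAM* higher, and their part was not tested. Again these were 2 of 8 receptors, both lower, where 20.5% of all genes were called and 11.7% were called lower, and the median over the 8 receptors was -0.18 against 0.0034 over all genes.

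*TNFRSF21* stood again under the fold threshold in TGFβ-treated cells, with 8474 and 8125 normalized counts in the control and 12541 and 11629 in the depleted libraries. Its log2 difference was 0.54 (standard error 0.06, adjusted p = 1.05e-05, limma), and it was called, at 0.60, without siPHF13 + TGFβ replicate 2. *TNFRSF11B* had 441 and 538 normalized counts in siControl + TGFβ and 336 and 351 in siPHF13 + TGFβ. The groups did not overlap, and the log2 difference of -0.50 (standard error 0.14, adjusted p = 0.00924, limma) was under the fold threshold, which it passed at -0.65 without siControl + TGFβ replicate 1. *TNFRSF10A* had a log2 difference of -0.27 (adjusted p = 0.0248, limma) and was likewise not called. For *TNFRSF10D* the log2 difference was 0.20 (adjusted p = 0.143), for *TNFRSF1A* -0.10 (adjusted p = 0.293) and for *TNFRSF12A* 0.03 (adjusted p = 0.734, all from limma). Without the fold threshold 5 of the 8 receptors passed, and 50.4% of all genes.

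**Figure D2:**
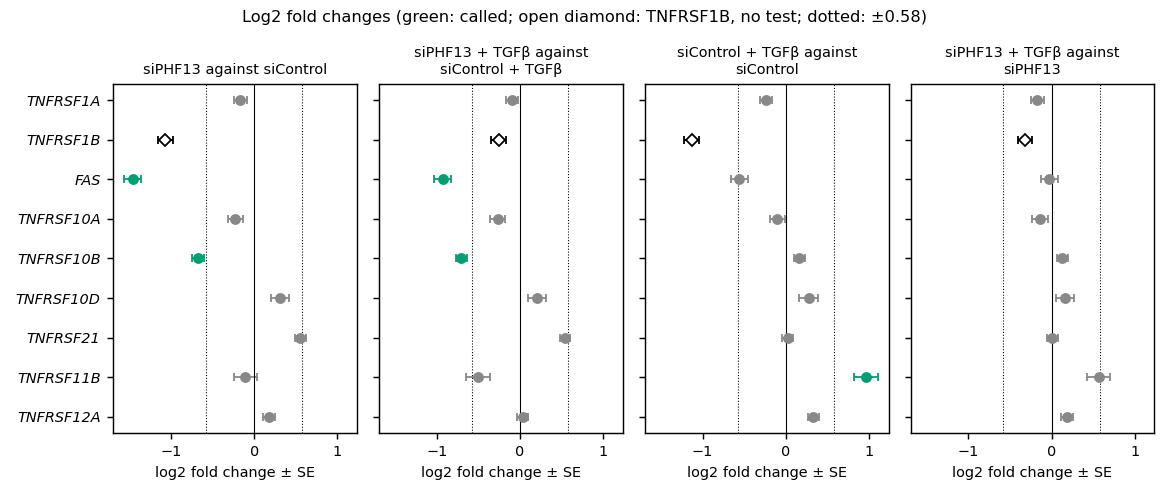
Log2 fold changes (horizontal axes, ± standard error of the limma fit) of the 9 receptors in 4 comparisons. Green points passed both thresholds, grey points did not, the open diamond is *TNFRSF1B*, which was not tested, and dotted lines stand at ±0.58. *FAS* and *TNFRSF10B* are green to the left in both depletion panels, and *TNFRSF11B* is the single green point under TGFβ, at 0.96 in control cells.

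Several of these genes share exon bases with a neighbour on the opposite strand, and the strand setting of the counting is not given in the sources used here, so that their reads cannot be told apart there. Of the exon bases of *FAS* (chromosome 10, 90750414 to 90775542 on GRCh37, plus strand) 25.7% are shared, in part with *ACTA2*, which had 34.8 to 86.4 normalized counts per library. Of those of *TNFRSF10B* (22877646 to 22926544 on the minus strand of chromosome 8) 7.52% are shared with *RHOBTB2*, which was not called in either depletion comparison. *TNFRSF10A* shares 16.7% with antisense transcripts. *TNFRSF12A* shares 2.22% with *CLDN6*, which rose from 7.59 and 19.8 normalized counts in siControl to 159 and 204 in siPHF13, against 4748 or more for *TNFRSF12A* itself in each library. No shared exon bases were annotated for *TNFRSF1A*, *TNFRSF1B*, *TNFRSF10D*, *TNFRSF11B* and *TNFRSF21*. *TNFRSF1B* lies on the plus strand of chromosome 1 from 12227048 to 12269285, and *TNFRSF21* on the minus strand of chromosome 6 from 47199268 to 47277641.

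To see how TGFβ acted on the receptors in control cells, siControl + TGFβ was compared with siControl. *TNFRSF11B*, whose product captures TRAIL and RANK ligand outside the cell, rose from 257 and 242 to 441 and 538 normalized counts. Both treated libraries lay above both untreated libraries. The log2 fold change was 0.96 (standard error 0.14, limma with Benjamini-Hochberg adjustment, adjusted p = 0.000374), or 1.95-fold. This was 1 of 8 receptors called, in a comparison that called 4.79% of all genes, and the median over the 8 receptors was 0.09 against -0.0059 over all genes. *FAS* went from 1578 and 1616 to 1027 and 1144 normalized counts, again without overlap. Its log2 difference of -0.56 (standard error 0.10, adjusted p = 0.00169, limma) was just under the fold threshold, and was -0.64 and called without siControl + TGFβ replicate 2. *COL1A1*, the fibroblast marker with a row, stood at 3345 and 3433 normalized counts in siControl and 16414 and 15334 in siControl + TGFβ. Of the 6 epithelial markers *KRT8*, *KRT19* and *CDH1* were called lower by TGFβ, and their sum went from 193830 and 204430 to 121810 and 127490 normalized counts. The part of these markers in the receptor values was not tested.

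*TNFRSF12A* was somewhat higher with TGFβ, at 6020 and 6273 normalized counts against 5022 and 4748, a log2 difference of 0.33 that did not reach the fold threshold (adjusted p = 0.00497, limma). *TNFRSF1A* had 5856 and 5510 normalized counts with TGFβ against 6463 and 6949 without, a log2 difference of -0.24 (adjusted p = 0.0433, limma). The 2 TRAIL death receptors showed no change that passed the test. *TNFRSF10B* had a log2 difference of 0.16 (adjusted p = 0.135) and *TNFRSF10A* one of -0.10 (adjusted p = 0.512), both from limma. *TNFRSF10D* was at 0.27 (adjusted p = 0.111) and *TNFRSF21* at 0.02 (adjusted p = 0.866) in the same limma fit. *TNFRSF21* libraries of both groups overlapped, between 7964 and 8474 normalized counts. Without the fold threshold 4 of 8 receptors passed, and 15.9% of all genes.

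In PHF13-depleted cells TGFβ moved none of the 8 receptors past both thresholds in limma, and neither did edgeR or DESeq2 on the recovered reads call any, where limma called 1.35% of all genes. At an unadjusted p under 0.05 limma counted 3 of the 8 and 13.9% of all genes, and at the adjusted p alone 1 of the 8 and 3.07% of all genes. *TNFRSF11B* had 239 and 225 normalized counts in siPHF13 and 336 and 351 in siPHF13 + TGFβ, without overlap, and its log2 difference of 0.57 (standard error 0.14, adjusted p = 0.0478, limma) lay just under the fold threshold. *FAS* had 570 and 588 normalized counts in siPHF13 and 531 and 608 in siPHF13 + TGFβ, and the groups overlapped. Its log2 difference was -0.03 (adjusted p = 0.949, limma). *COL1A1* was called higher here as well, at 1922 and 1887 against 4909 and 4691 normalized counts. The other 6 lay between -0.17 for *TNFRSF1A* and 0.19 for *TNFRSF12A*, and the median over the 8 was 0.07 against -0.0082 over all genes.

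The TGFβ response in depleted cells minus that in control cells was not tested for any receptor, because the list of receptors was drawn up with this value of *TNFRSF1B* in view. The value for *FAS* was 0.53 (standard error 0.14), the nearest to the 0.81 of *TNFRSF1B*. *TNFRSF11B* had -0.40 (0.20) and *TNFRSF12A* -0.15 (0.10). The other 5, *TNFRSF10D*, *TNFRSF1A*, *TNFRSF10A*, *TNFRSF10B* and *TNFRSF21*, lay between -0.11 and 0.07. The TGFβ response in control cells and the effect of depletion without TGFβ share the siControl libraries.

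The levels of the 9 receptors were compared with each other per kilobase of transcript, using the canonical transcript of each gene and, for *FAS*, the union of its exons. The exon union was longer than the canonical transcript for some genes, at 4205 against 2171 bases for *TNFRSF1A* and 1801 against 977 for *TNFRSF12A*. The order between receptors, also at the top, therefore depends on the length taken. In siControl the highest was *TNFRSF12A* at 5000 normalized counts per kb, followed by *TNFRSF1A* at 3089. *TNFRSF1B* came next at 2344 (2307 to 2381 in the 2 libraries) and was not separated from *TNFRSF21* at 2273 (2215 to 2330). *TNFRSF10B* stood at 1558. *FAS* at 448 and *TNFRSF10A* at 435 were close, with libraries at 443.1 to 453.5 and 428.4 to 442.5, and the order of the pair rests on the length taken for *FAS*. *TNFRSF10D* at 219 and *TNFRSF11B* at 119.6 ended the order. In siControl + TGFβ *TNFRSF1B* stood at 1070, below *TNFRSF10B* at 1744. With depletion and TGFβ together *TNFRSF1B* stood at 898, again below *TNFRSF10B*, at 1069. *FAS* was last there, at 159.9, where its range of 149 to 171 overlapped that of *TNFRSF11B*. *TNFRSF21* moved to the second place in both depleted groups, at 3341 without and 3362 with TGFβ.

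**Figure D3:**
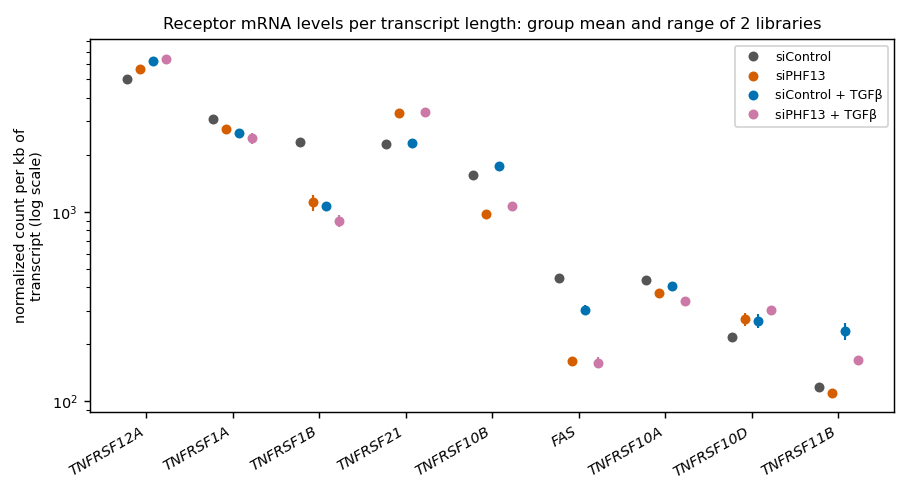
Normalized counts per kb of transcript (vertical log axis) of the 9 receptors, ordered by their siControl mean, with a point for the mean of the 2 libraries of a group and a line for their range. With the lengths taken here *TNFRSF12A* is highest in each of the 4 groups (5000 to 6433). *TNFRSF1B* stands at 2344 in siControl and at 898 to 1122 in the other groups.

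The genes around these receptors were then counted from lists of the pathway. Of 20 other receptors of the superfamily 12 had a row in the table. Upon depletion without TGFβ 5 of them fell and 1 rose, and with TGFβ 3 fell and 1 rose, against 18.4% and 20.5% of all genes called in either direction. Their medians were -0.36 and -0.16 on the log2 scale. *CD40*, a receptor known for activating NF-κB through TRAF proteins, had 1677 and 1593 normalized counts in siControl and 560 and 521 in siPHF13, a log2 fold change of -1.60 without and -1.24 with TGFβ (adjusted p = 2.15e-08 and 1.88e-07, limma). *TNFRSF11A*, the receptor for RANK ligand, fell from 2642 and 2424 to 1182 and 1059 normalized counts, a log2 fold change of -1.18, and by 1.44 with TGFβ (adjusted p = 1.73e-07 and 2.51e-08, limma). *TNFRSF9*, a costimulatory receptor of T cells, had 206 and 196 normalized counts in siControl and 46.7 and 38.5 in siPHF13. Its log2 fold change was -2.22 without and -1.84 with TGFβ (adjusted p = 5.52e-06 and 2.53e-05, limma).

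The remaining called receptors of that list had 10.9 to 136 normalized counts per library. *CD27*, a lymphocyte receptor for CD70, rose from 62.6 and 64.9 to 119 and 132 normalized counts, with log2 fold changes of 0.97 without and 1.01 with TGFβ (adjusted p = 0.00326 and 0.00221, limma), and it shares 44.7% of its exon bases with annotated neighbours. *NGFR*, the low-affinity neurotrophin receptor, fell upon depletion without TGFβ, from 70.2 and 65.8 to 18.9 and 29.6 normalized counts (log2 fold change -1.48, adjusted p = 0.00503, limma). It shares 27.2% of its exon bases with antisense transcripts. *TNFRSF18*, another T cell receptor of the family, fell from 74.0 and 46.9 to 19.9 and 10.9 normalized counts (log2 fold change -1.93, adjusted p = 0.00496, limma). Without siControl replicate 1 it no longer passed (-1.60, adjusted p = 0.0713). The 2 leukocyte markers with a row summed to 207 and 251 normalized counts in siControl, 100 and 103 in siPHF13, 179 and 124 in siControl + TGFβ and 87.4 and 128 in siPHF13 + TGFβ. Of the pair *ITGAM* was called lower in both depletion comparisons, and their part in the values of *CD40*, *TNFRSF9* and *TNFRSF18* was not tested.

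Of 18 ligands 8 had a row, and 3 fell upon depletion without TGFβ and 1 with it, none being called higher. Of all genes 10.4% and 11.7% were called lower, so that the count with TGFβ was at the background. *TNFSF10* encodes TRAIL, the ligand of *TNFRSF10A*, *TNFRSF10B* and *TNFRSF10D*. It had 208 and 237 normalized counts in siControl, 52.7 and 48.3 in siPHF13, 222 and 186 in siControl + TGFβ and 68.0 and 69.3 in siPHF13 + TGFβ. The depleted libraries lay below the controls with and without TGFβ, with log2 fold changes of -2.11 and -1.55 (adjusted p = 2.65e-06 without and 3.72e-05 with TGFβ, limma). *LTB*, which forms lymphotoxin at the cell surface, fell from 261 and 234 to 79.6 and 135 normalized counts (log2 fold change -1.24, adjusted p = 0.00165, limma). It was also called lower by TGFβ in control cells, at 144 and 117 (-0.92, adjusted p = 0.0307, limma), a call that was lost when any of those 4 libraries was left out (adjusted p = 0.0743 to 0.194). *TNFSF13B*, the B cell factor BAFF, had 21.8 and 28.8 normalized counts in siControl and 3.98 and 2.96 in siPHF13 (adjusted p = 0.00991, limma), and did not pass without siControl replicate 2 (adjusted p = 0.0842). *TNF* itself had 63.7 to 146 normalized counts per library and was not called. *FASLG* had no row.

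Among 22 of 23 adaptors and ubiquitin enzymes that carry the signal below the receptors, 5 fell upon depletion without TGFβ and 4 with it, and none was called higher. With 18.4% and 20.5% of all genes called in either direction, these counts were near that background. Both counts lay above the 10.4% and 11.7% of all genes that were called lower. The list was not tested as a whole, and the values of single members are given as such. *BIRC3*, a ubiquitin ligase that binds TRAF2 and is a known NF-κB target, had 42378 and 43978 normalized counts in siControl, 12345 and 14083 in siPHF13, 34165 and 34907 in siControl + TGFβ and 11183 and 11116 in siPHF13 + TGFβ. Its log2 fold changes of -1.71 and -1.63 (adjusted p = 8.82e-10 without and 9.31e-10 with TGFβ, limma) held in every depleted library against every control library. *TNFAIP3*, the deubiquitinase A20 that limits NF-κB, fell from 2863 and 2865 to 928 and 1098 normalized counts, which was 2.84-fold lower, and by 1.39 on the log2 scale with TGFβ (adjusted p = 8.13e-08 and 1.3e-07, limma). *CYLD*, another deubiquitinase that restrains this pathway, had log2 fold changes of -0.84 and -0.68 (adjusted p = 2.53e-06 and 1.42e-05, limma). *TRAF1*, an adaptor of *TNFRSF1B*, fell by 0.69 on the log2 scale without TGFβ, and with TGFβ it went from 3921 and 4010 to 2116 and 1855 normalized counts (adjusted p = 7.72e-06 and 2.34e-07, limma). *TRAF5* was the other gene called lower without TGFβ. The list median was -0.11 without and -0.13 with TGFβ. *TRAF2*, *TRAF3*, *TRADD* and *FADD* were not called.

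Of 9 out of 10 genes of the death machinery 1 was called upon depletion without TGFβ and 2 with it, which is also near the background. *MLKL*, the executor of necroptosis, fell in both depletion comparisons, by 0.62 without and by 0.68 with TGFβ on the log2 scale (adjusted p = 0.000104 and 4.31e-05, limma). *CASP10*, a relative of caspase-8, had 63.5 and 38.7 normalized counts in siControl, 34.8 and 46.4 in siPHF13, 19.4 and 14.4 in siControl + TGFβ and 34.5 and 50.0 in siPHF13 + TGFβ. It was called lower by TGFβ in control cells (-1.51, adjusted p = 0.0201, limma) and higher by depletion in TGFβ-treated cells (1.26, adjusted p = 0.0177, limma). The first call was lost without siControl replicate 1 (adjusted p = 0.224) or siControl + TGFβ replicate 2 (0.1), and the second without siControl + TGFβ replicate 2 (0.0913) or siPHF13 + TGFβ replicate 2 (0.124). At the adjusted p alone 4 of the 9 passed upon depletion without TGFβ and 5 with it, where 47.4% and 50.4% of all genes did. *CFLAR* was among them, lower by 0.52 and 0.53 on the log2 scale (adjusted p = 6.04e-05 and 4.26e-05, limma). This lay under the fold threshold, and *BID* and *XIAP* fell less. *CASP8*, *CFLAR*, *BID*, *XIAP* and *DIABLO* were not called in any comparison. Nor were *ADAM10*, *ADAM17* and *TIMP3*, which cut TNF receptors from the cell surface or inhibit that cut, by limma, edgeR or DESeq2. At an unadjusted p under 0.05 limma counted 1 of the 3 upon depletion without TGFβ and 2 with it, where 54% and 56.2% of all genes stood. The same 1 and 2 passed at the adjusted p alone, but under the fold threshold. *ADAM17* was higher by 0.32 without and 0.24 with TGFβ on the log2 scale (adjusted p = 0.000794 and 0.006, limma). *ADAM10* was lower by 0.22 with TGFβ (adjusted p = 0.0116, limma). Under TGFβ in control cells no gene of the other receptors or the adaptors was called by these tools, with 7 of 12 and 9 of 22 at an unadjusted p under 0.05 in limma, where 28.4% of all genes stood. Under TGFβ in depleted cells no gene of these 5 lists was called by any of these tools, with 3 of 12 receptors, 0 of 8 ligands, 4 of 22 adaptors, 0 of 9 death genes and 0 of 3 shedding genes at an unadjusted p under 0.05 in limma, against 13.9% of all genes.

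**Figure D4:**
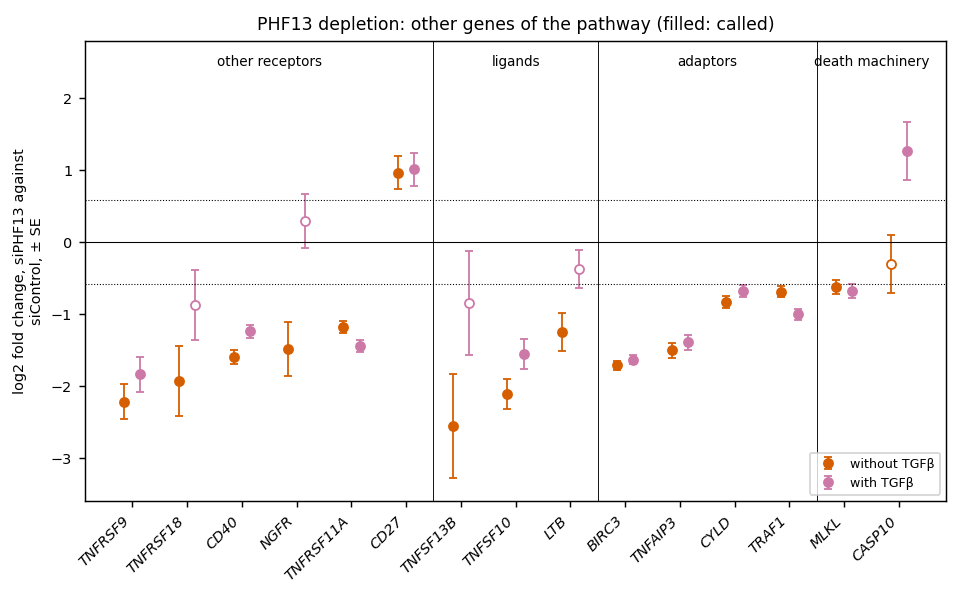
Log2 fold changes upon PHF13 depletion (vertical axis, ± standard error of the limma fit) of the named pathway genes, without TGFβ in orange and with TGFβ in pink. Filled points passed both thresholds and dotted lines stand at ±0.58, and *CD27* and, with TGFβ, *CASP10* are the filled points above 0.

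The genes whose pattern over the 8 libraries was most like that of *TNFRSF1B* were sought by Pearson's r of the log2 values, over the 11200 genes that averaged 100 normalized counts or more. They were *SGOL1* (r = 0.99), *IFIT2* (0.99), *TPX2* (0.98), *PLS1* (0.98) and *TMEM173* (0.98), each over 8 libraries. The 8 points are 4 groups of 2 libraries, and no p is given. *IFIT2* had 4612 and 5152 normalized counts in siControl and 1518 to 2381 in the other 6 libraries, a spread like that of *TNFRSF1B*. *SGOL1* had 983 and 1009 in siControl and 722 to 787 in the other libraries, so that the order was alike but the size of the change was smaller.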

How the data were processed

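Polyadenylated RNA of 8 Panc-1 libraries was sequenced in 4 groups of 2. According to the methods and the submitters' processing notes, the authors trimmed reads with Trim Galore 0.4.1, mapped them to hg19 with STAR 2.7.0, counted reads on exons with HTSeq 0.12.4 and normalized the counts with DESeq2. The annotation release and the strand setting are not given in the sources used here. The deposited table holds a signal, gene counts divided by the size factor of the library. The deposited comparison tables of the authors hold log2 fold changes with their errors, p-values and adjusted p-values, and were not used.

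Groups came from the sample labels. The columns of the siControl libraries were matched by elimination, since the names of the other columns match the other 3 groups. All comparisons came from 1 fit of 4 group means over the 8 libraries, on log2(normalized count + 1), with limma 3.58.1 in R 4.3.3 and a trended prior variance, without a block. P-values were adjusted over 13307 genes by the Benjamini-Hochberg method. A gene was called when its adjusted p was below 0.05 and its log2 fold change exceeded 0.58 in size, the thresholds of the study. Requiring 10 normalized counts in 2 libraries or more removed none of the genes. The members and the gene lists were chosen with earlier results of these data known. Further genes of a list are named where they were called, at most the 4 with the largest absolute change per list and comparison. *TRAF5* and the genes named as not called were added after their values were seen, as were the overlapping neighbours. Some genes of the lists are not reported here by name.

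In each library 100% of values were whole multiples of 1 step within 0.01, so that whole reads were recovered. On these, edgeR 4.0.16 called 2437, 640, 2724 and 176 genes for depletion, TGFβ in siControl, depletion with TGFβ and TGFβ in siPHF13, and DESeq2 1.42.0 called 2422, 644, 2692 and 201. The other alternatives were a pseudocount of 5, no minimum, a minimum mean of 100, TMM factors, a fit of the compared libraries alone, a replicate block, no fold threshold and each library left out. The scripts were tested on simulated data. Lengths and overlaps came from GENCODE on GRCh37, and 250 upstream bases and motif shares from RefSeq on GRCh38.p14. Motifs were searched on both strands.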

Additional observations from a re-analysis of the deposited data

Results flagged for a closer look

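Among 24 genes that were checked, the 9 receptors and the named genes of the pathway, 2 genes outside the 9 receptors moved with TGFβ in opposite directions in control and depleted cells, with both treated libraries on one side of both untreated libraries in each. *CD40* had a log2 response of -0.17 in siControl and 0.18 in siPHF13 cells (adjusted p = 0.248 and 0.414, limma), a difference of 0.36. *NGFR* had -0.94 and 0.84 (adjusted p = 0.112 and 0.328, limma), a difference of 1.78, at 18.9 to 70.2 normalized counts per library. None of these single responses passed the test, and the differences were not tested. The share of all genes that meet the same rule was not counted, so that the count of 2 has no background.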

How the results depend on the processing

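With 2 libraries a group, values near a threshold are the least certain. The number of receptors called stayed at 2, 1, 2 and 0 (depletion, TGFβ in siControl, depletion with TGFβ, TGFβ in siPHF13) with a pseudocount of 5, no minimum, a minimum mean of 100, TMM factors, only the compared libraries, edgeR and DESeq2. Without the fold threshold it was 4, 4, 5 and 1. When a library was left out it ranged from 2 to 3, from 1 to 2, from 2 to 3 and stayed at 0. *TNFRSF1B* had a difference in TGFβ response of 0.67 to 0.95 with a library left out and of 0.81 under the other settings. Deviations of same-numbered libraries correlated at -0.0893 to 0.05 between groups, so that no shift shared by same-numbered libraries was seen. Whether such libraries were prepared together is not given by the labels and cannot be settled by these correlations. With the replicate block the counts were again 2, 1, 2 and 0 and the difference for *TNFRSF1B* 0.81. Some values near 0 changed sign when a library was left out, none of them called. *TNFRSF21* under TGFβ ranged from -0.0137 to 0.0591 in siControl and from -0.046 to 0.0629 in siPHF13 cells, and *FAS* under TGFβ in siPHF13 cells from -0.124 to 0.0714. Upon depletion with TGFβ *TNFRSF12A* ranged from -0.0108 to 0.0742 and *NGFR* from -0.0625 to 0.664, and upon depletion without it *CASP10* from -0.648 to 0.0514. A minimum mean of 100, which left fewer genes to test, lowered the called genes among the other receptors from 6 to 3 upon depletion.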
